A study of Mus musculus with 8 samples.

Results

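The Purkinje cell genes described here are Pcp2, Pcp4, Calb1, Car8, Itpr1 and Ppp1r17, which were found by symbol in the table of gene counts, 6 genes of 22430. The genes were named as markers of Purkinje neurons and were selected from a reading of these counts in which the 24m and 6m libraries had already been compared. The comparison of the ages over the members is therefore given as a description, with no test. The brains came from male C57Bl/6JRj mice, an inbred strain, of which 4 were young adults of 6 months (6m) and 4 were aged animals of 24 months (24m). Each animal gave 1 library of RNA from a whole hemisphere, read on a nanopore instrument by Oxford Nanopore Technologies (ONT), and the comparison asks which transcripts differ in abundance in the aged brain. The RNA of all brain regions is mixed in such a library, so fewer cells of a type and less RNA per cell cannot be told apart in any value given here.

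Purkinje neurons are the large inhibitory neurons of the cerebellar cortex and its only output. Parallel fibres of granule cells and climbing fibres excite them, and metabotropic glutamate receptors couple through Gq, phospholipase C and inositol trisphosphate (IP3) to the release of calcium from the endoplasmic reticulum, which calcium-binding proteins then buffer. Pcp2 is nearly restricted to these cells within the brain, whereas Pcp4, Calb1 and Itpr1 are also made in striatum, cortex, hippocampus or thalamus, so the level of these genes in a hemisphere is not that of Purkinje cells alone.

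The counts assigned to genes summed to 843706, 573152, 838483 and 818963 in 6m replicates 1 to 4, and to 660398, 903595, 742951 and 1255424 in 24m replicates 1 to 4. Levels are given in CPM, the count of a gene relative to its library's size after scaling by edgeR's TMM method, and ± marks the SD over the 4 mice of an age. All 6 members exceeded a mean count of 5 per library, the minimum for the fit, and every member had counts in every library. The aged replicate 1 stood apart from the rest of its age. The chi-square per degree of freedom between its counts and those of the other aged libraries was 3.26, 3.25 and 4.58, against 1.36, 2.05 and 2.06 among the other aged libraries, and its share of mitochondrial counts was 6.48%, the lowest of the 8. Members whose values rest on this library are given with and without it.

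Pcp2, which encodes a GoLoco protein that binds Gi and Go alpha subunits, lies on the minus strand of chromosome 8 (chr8:3673371-3675545, GRCm39; ENSMUSG00000004630). Its levels at 6m were 558, 372, 274 and 413 CPM in replicates 1 to 4, and at 24m they were 671, 474, 410.1 and 359 CPM. The ages overlapped, since only aged replicate 1 lay above all young adult libraries. The means were 404 ± 118 CPM in the young adult and 479 ± 137 CPM in the aged libraries (SD over 4 mice per age), a log2 fold change (log2FC, 24m against 6m) of 0.23 (SE 0.163). Counting error alone would give an SD of 23.7 CPM at 6m and 24.2 CPM at 24m, so most of the spread of Pcp2 lay between libraries of the same age. Without aged replicate 1 the log2FC was 0.04, and without young adult replicate 1, the highest library of its age, it was 0.44. Pcp2 shares 941 exon bases with Pet100 on the opposite strand. Pet100 held between 25 and 65 counts in a library against 203 to 462 for Pcp2, and how reads in the shared bases were assigned was not tested.

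Pcp4 (chr16:96268806-96326997, plus strand; ENSMUSG00000090223) encodes a small IQ-motif protein that binds calmodulin and speeds its exchange of calcium. Young adult replicates 1 to 4 held 1007, 944, 1021 and 988 CPM of Pcp4, and aged replicates 1 to 4 held 745, 816, 766 and 892 CPM. All 4 aged libraries lay below all 4 young adult libraries, and Pcp4 was the member with this order; over all 9375 tested genes, every aged library lay below every young adult library in 9.9%. The level was 990.2 ± 33.4 CPM in the young adult and 805 ± 65.4 CPM in the aged libraries (SD over 4 mice per age), a log2FC of -0.30 (SE 0.0861). Without aged replicate 1 the log2FC of Pcp4 was -0.25. At 6m the spread was no larger than counting error, which gives an SD of 37.2 CPM, and at 24m it was 65.4 CPM against 30.4 CPM. Gm49948, an annotated gene on the same strand that shares 243 exon bases with Pcp4, differed from it by 10, 4, 8 and 9 counts in the young adult libraries and by 3, 3, 0 and 3 counts in the aged libraries. The counts of the pair are thus nearly the same, and how the reads divide between Pcp4 and Gm49948 was not tested.

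Calb1 (chr4:15881155-15908085, plus strand; ENSMUSG00000028222) encodes calbindin, the buffer that binds much of the calcium entering Purkinje cells. It was measured at 98.6, 73.3, 80.8 and 64.9 CPM in the young adult libraries and at 89.7, 123, 121 and 131 CPM in the aged libraries, in the order of the replicates. Aged replicates 2, 3 and 4 lay above every young adult library and aged replicate 1 lay inside their range. From 79.4 ± 14.3 CPM at 6m to 116 ± 18.1 CPM in the aged libraries (SD over 4 mice per age), the log2FC was 0.56 (SE 0.156), and without aged replicate 1 it was 0.66.

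Itpr1 (chr6:108190048-108528070, plus strand; ENSMUSG00000030102) encodes the type of IP3 receptor that releases calcium from the endoplasmic reticulum of Purkinje cells. Its levels were 96.1, 78.8, 95.9 and 85.3 CPM at 6m and 66.5, 152, 110.3 and 101 CPM at 24m. Aged replicate 1 lay below all young adult libraries and the other aged libraries above all of them. The mean was 89.0 ± 8.46 CPM in the young adult and 107 ± 35.1 CPM in the aged libraries (SD over 4 mice per age), with a log2FC of 0.28 (SE 0.177). A single library decided much of this value, which was 0.43 without aged replicate 1 and 0.07 without aged replicate 2. The spread at 6m was below the SD of 11.1 CPM that counting gives, and at 24m it was above the 11.0 CPM that counting gives. Exons of Itpr1 overlap those of 4 annotated genes on the opposite strand, none of which is in the table.

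Car8 (chr4:8141533-8239088, minus strand; ENSMUSG00000041261) belongs to the carbonic anhydrase family by sequence but lacks the enzymatic activity, and its protein binds the IP3 receptor and lowers its affinity for IP3. Young adult replicates 1 to 4 held 84.9, 53.2, 45.4 and 49.7 CPM of Car8, and aged replicates 1 to 4 held 92.8, 119, 84.3 and 90.2 CPM. The ages met at 1 point, where young adult replicate 1 lay just above aged replicate 3, and the other aged libraries were higher than all young adult libraries. The means were 58.3 ± 18.0 CPM and 96.6 ± 15.4 CPM (SD over 4 mice per age), a log2FC of 0.72 (SE 0.180) or 1.65-fold. Without young adult replicate 1 the log2FC was 0.99. Car8 shares no exon bases with another annotated gene.

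Ppp1r17 (chr6:55989619-56009674, plus strand; ENSMUSG00000002930) encodes G-substrate, a target of the cGMP-dependent kinase that inhibits the phosphatases PP1 and PP2A once phosphorylated. Its counts were low, with 13, 6, 10 and 10 in the young adult libraries and 19, 23, 17 and 35 in the aged libraries, which correspond to 16.2, 11.0, 12.6 and 12.7 CPM at 6m and 29.4, 24.2, 22.1 and 27.2 CPM at 24m. Every aged library lay above every young adult library, which over all tested genes was the case for 11.2%. The level was 13.1 ± 2.20 CPM in the young adult and 25.7 ± 3.23 CPM in the aged libraries (SD over 4 mice per age), a log2FC of 0.94 (SE 0.265) or 1.92-fold, and the spread within each age was below that of counting, 4.26 CPM and 5.50 CPM. Without aged replicate 1 the log2FC was 0.90. Ppp1r17, like Calb1 and Car8, had no annotated transcript of another gene at 95 percent identity over 50 percent of its own, and the same held for Pcp2, Pcp4 and Itpr1.

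**Figure D1:**
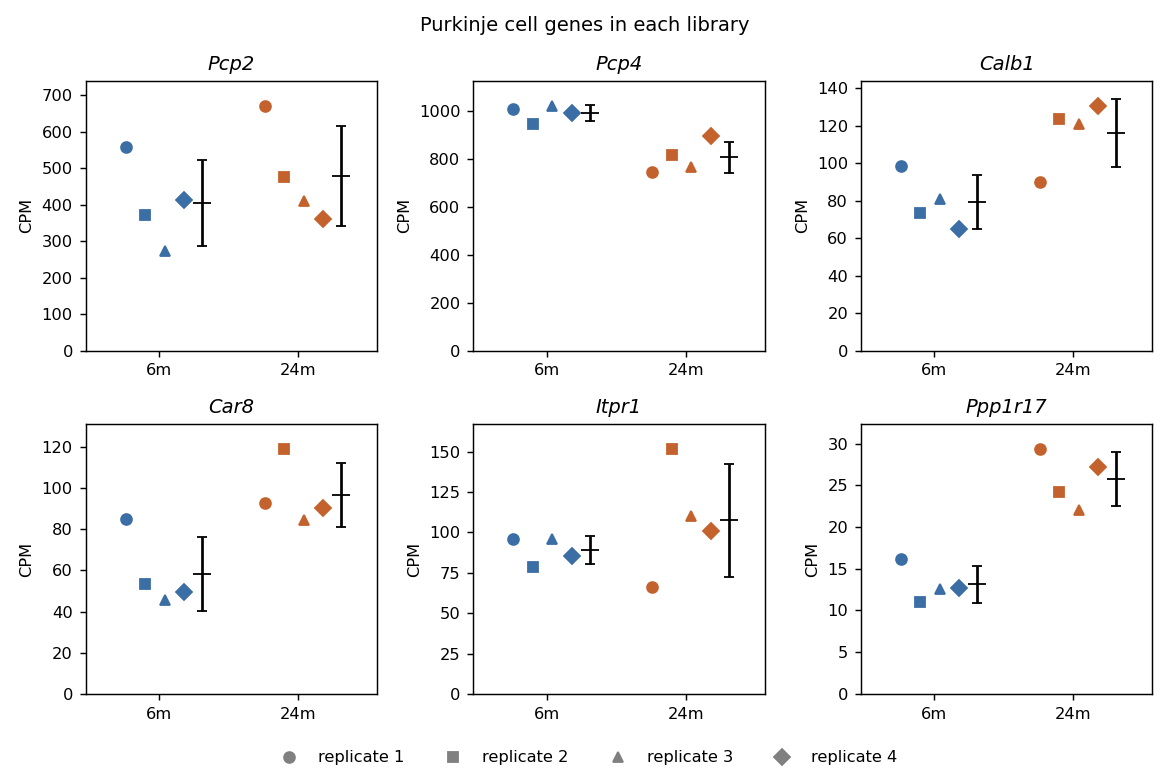
Level of each member in each library, in CPM on a linear axis that starts at 0, with 6m in blue and 24m in orange; each symbol is a replicate, and the black bar gives the mean ± SD of 4 libraries. Ppp1r17 lies between 11.0 and 16.2 CPM at 6m and between 22.1 and 29.4 CPM at 24m, Pcp4 is lower in all aged libraries, and Pcp2 spreads widely within both ages.

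Taking the members side by side, 5 of the 6 had a positive log2FC and Pcp4 a negative one, and their median was 0.42, beside -0.0032 over all tested genes. A gene was called changed when edgeR's quasi-likelihood test gave an adjusted p (Benjamini-Hochberg, over 9375 genes) no higher than 0.05 and the log2FC was 0.58 or more in either direction. Of the 6 members, 2 lay past both thresholds, Car8 and Ppp1r17, both higher at 24m. Over all tested genes 14.5% were changed, 10.3% higher and 4.16% lower. Nothing is read from the count of members, because the choice of the members used the same contrast. The call of Ppp1r17 was lost with DESeq2, where only Car8 passed, and with DESeq2 on quantile-normalized counts, where Calb1 and Car8 passed. Calb1 also passed on library sizes alone, with edgeR's own filter on low counts, without young adult replicate 1 and without aged replicate 1. The scaling of the libraries matters for Pcp4. On library sizes alone the log2FC of Pcp4 was -0.19, but the median of all tested genes was then 0.10, and relative to that median Pcp4 stood at -0.29, as it did with TMM. On those library sizes 84.7% of the changed genes were higher at 24m, against 71.3% with TMM. With DESeq2 on quantile-normalized counts the log2FC of Pcp4 was -0.05, so its size, though not its sign, depended on the normalization.

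The members are not neighbours in the genome, although Calb1 and Car8 share chromosome 4 with start sites 7.64 Mb apart, and Itpr1 and Ppp1r17 share chromosome 6 with start sites 52.2 Mb apart. On levels that hold the difference between the ages, Car8 and Ppp1r17 were the pair that varied most alike across libraries. With the mean of each age subtracted, Calb1 and Itpr1 were closer. The bases before the start sites are shown for Car8 and Ppp1r17, and for Pcp2 and Pcp4, whose windows hold the element AGGTCA. This element of 6 bases is bound by the orphan receptor RORA, which Purkinje cells require, and by other nuclear receptors. It was searched on both strands in the 250 bases before the start of the canonical GENCODE transcript in GRCm39, and 2 of the 6 members held it, against 13.3% of the 22281 annotated genes of the table. A match is a description of the letters and not a site. The sequences run 5' to 3' on the strand of the gene with the element in capitals, from chr8:3675050-3675209 (minus) for Pcp2, where the window was shortened to 160 bases to leave out exons, chr16:96268556-96268805 (plus) for Pcp4, chr4:8239089-8239338 (minus) for Car8 and chr6:55994202-55994451 (plus) for Ppp1r17.
Pcp2: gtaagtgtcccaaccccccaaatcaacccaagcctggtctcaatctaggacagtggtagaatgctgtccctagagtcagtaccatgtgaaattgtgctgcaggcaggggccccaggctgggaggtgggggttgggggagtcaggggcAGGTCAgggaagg
Pcp4: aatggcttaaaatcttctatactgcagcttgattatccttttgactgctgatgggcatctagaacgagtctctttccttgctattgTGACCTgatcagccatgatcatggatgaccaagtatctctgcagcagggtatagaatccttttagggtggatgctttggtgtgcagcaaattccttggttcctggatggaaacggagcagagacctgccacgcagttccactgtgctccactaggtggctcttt
Car8: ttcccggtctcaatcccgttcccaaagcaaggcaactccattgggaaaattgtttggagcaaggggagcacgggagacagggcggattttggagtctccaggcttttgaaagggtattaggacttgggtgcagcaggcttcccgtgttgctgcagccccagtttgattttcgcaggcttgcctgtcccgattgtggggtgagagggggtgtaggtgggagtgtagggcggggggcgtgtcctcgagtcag
Ppp1r17: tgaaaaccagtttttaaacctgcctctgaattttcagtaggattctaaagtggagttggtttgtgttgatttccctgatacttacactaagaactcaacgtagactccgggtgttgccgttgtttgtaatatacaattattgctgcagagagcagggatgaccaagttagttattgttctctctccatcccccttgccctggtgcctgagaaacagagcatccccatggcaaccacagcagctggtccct
In Pcp2 the element lies from -13 to -8 before the start site on the strand of the gene, and in Pcp4 it lies from -164 to -159 on the opposite strand. Neither Car8 nor Ppp1r17 holds these letters in the window.

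Across the 8 libraries the members did not rise and fall as a block. Spearman rho of log2 CPM (prior count of 2) had a median of 0.238 over the 15 pairs of members, with 9 pairs positive, and ran from -0.738 for Pcp4 and Ppp1r17 to 0.833 for Car8 and Ppp1r17. These values hold the difference between the ages as well as the differences among mice of an age, and they are descriptions over 8 libraries, with no test. The pairs divided by Pcp4. All 5 pairs with Pcp4 were negative, with a median of -0.429, and of the 10 pairs without it 9 were positive, with a median of 0.536. Calb1 was close to Itpr1 (rho 0.762, r 0.647), to Car8 (rho 0.714, r 0.830) and to Ppp1r17 (rho 0.690, r 0.773). Pcp2 went with Car8 (rho 0.595, r 0.626) but not with Calb1 (rho 0.0238, r 0.134) or Itpr1 (rho -0.143, r -0.2102).

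With the mean of each age subtracted, what is left is variation among mice of the same age. The median rho over the 15 pairs was then 0.262, with 10 pairs positive, but some pairs changed sign. Pcp4 turned from negative to positive with Calb1 (rho 0.667, r 0.617) and Itpr1 (rho 0.548, r 0.465), and Calb1 and Itpr1 were as close as before (rho 0.762, r 0.667). These relations rested in part on aged replicate 1, the lowest library of its age in Pcp4, Calb1 and Itpr1. Without it, over 7 libraries, Pcp4 had a rho of -0.0357 and an r of -0.0086 with Itpr1 and a rho of 0.643 and an r of 0.382 with Calb1, and Calb1 and Itpr1 had a rho of 0.214 and an r of 0.259. With all 8 libraries, Car8 and Ppp1r17, the closest pair on the unadjusted levels, had a rho of 0.452 and an r of 0.541. Pcp2 kept its relation to Car8 (rho 0.595, r 0.638) and to Ppp1r17 (rho 0.5, r 0.610), and with Pcp4 its rho was -0.524. With each of the 8 libraries left out in turn, rho lay between 0.5 and 0.857 for Pcp2 and Car8, between 0.214 and 0.679 for Pcp2 and Ppp1r17, and between 0.0357 and 0.786 for Car8 and Ppp1r17. For Pcp2 and Calb1 it lay between -0.964, without young adult replicate 1, and 0.107, and for Pcp4 and Ppp1r17, negative on the unadjusted levels, between 0.0714 and 0.643, the latter without aged replicate 1. The r then lay between 0.31 and 0.86 for Pcp2 and Car8 and between 0.34 and 0.80 for Pcp2 and Ppp1r17. For Car8 and Ppp1r17 it lay between -0.15, without young adult replicate 1, and 0.72. A single library thus changed these values widely.

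**Figure D2:**
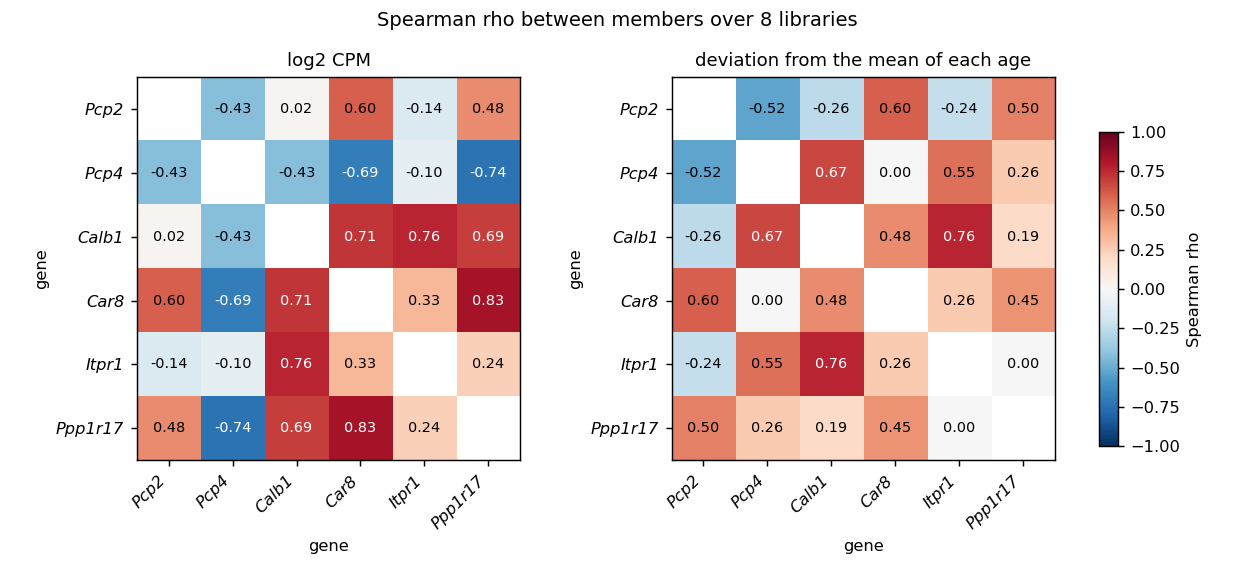
Spearman rho between the members over 8 libraries, on log2 CPM (left) and on deviations from the mean of each age (right), coloured from -1 (blue) to 1 (red). Pcp4 is negative with every other member on the left, and on the right, with aged replicate 1 included, it is positive with Calb1 (0.667) and Itpr1 (0.548).

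The mean z-score of the 6 members summarises each library. It was highest in aged replicate 2 (0.783), followed by aged replicate 4 (0.412), young adult replicate 1 (0.364), aged replicate 3 (0.170) and aged replicate 1 (0.0712), and it was lowest in young adult replicates 4, 3 and 2 (-0.548, -0.578 and -0.674). Young adult replicate 1 thus ranked among the aged libraries, and this library was the highest of its age in Pcp2, Calb1, Car8, Itpr1 and Ppp1r17. Among 5159 other tested genes with a mean count of at least 20, the genes most like this score over the 8 libraries were Psme3 (r = 0.960), Mrtfa (0.928), Tra2b (0.926), Apmap (0.922), Morn4 (0.901), Ntm (0.889), Cyp2d22 (0.889), Map4 (0.884), Naa60 (0.879) and Tmem150b (0.875), and the least like it were Pcbp3 (-0.949), Srsf5 (-0.944), Polr2h (-0.932), Snrpa (-0.932) and Tubb2a (-0.925). An r over 0.8 was reached by 57 of these genes, and by 26 on deviations from the mean of each age. How many would reach it over 8 libraries without any relation to the members was not tested. After the mean of each age was subtracted, the highest were Mrtfa (0.967), Ogfod2 (0.926), Psme3 (0.917), Fbxo9 (0.914), Psmf1 (0.913), Apmap (0.909), Tbca (0.898), Tra2b (0.892), Nova2 (0.8903) and Tnks1bp1 (0.888), and the lowest were Cby1 (-0.981), Gldc (-0.958), Pcbp3 (-0.956), Pim2 (-0.948) and Ap5s1 (-0.936). Of the other Purkinje cell genes listed below, 10 reached that mean count and were compared, and these 10 were not among the genes named here.

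Other genes known from Purkinje cells were compared with the members in the same fit. Of 22 such genes, 15 were tested, and 2 of these were changed, both higher at 24m, beside 10.3% of all tested genes changed and higher. Rgs8, a regulator of G protein signalling that marks Purkinje cells, had 9.99, 5.50, 8.83 and 7.64 CPM at 6m and 15.5, 23.2, 22.1 and 13.2 CPM at 24m, with no overlap (log2FC 1.14, SE 0.345, adjusted p = 0.0191 in edgeR). Without aged replicate 2 the edgeR adjusted p of Rgs8 was 0.0757, without aged replicate 3 it was 0.0569, and with DESeq2 it was 0.0635. Homer3, a scaffold that ties the metabotropic receptor to the IP3 receptor, had 43.7, 42.2, 49.2 and 49.7 CPM at 6m and 128, 69.6, 63.6 and 59.1 CPM at 24m (log2FC 0.74, SE 0.207, adjusted p = 0.0129 in edgeR). Aged replicate 1 carried the high value, and without it the log2FC of Homer3 was 0.46, under the fold change minimum; its exons also overlap Ddx49 on the opposite strand. The median log2FC of the list was 0.08, and its most abundant gene, Aldoc, which astrocytes also make, lay at 2374 ± 212 CPM in the young adult and 2178 ± 332 CPM in the aged libraries (SD over 4 mice per age; log2FC -0.13, SE 0.0998). Of the 15 tested genes 8 had a positive log2FC, beside 4659 of all 9375. The transcription factors of the list were scarce, with Skor2 at 0 counts in 3 libraries and Lhx5 in 4.

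**Figure D3:**
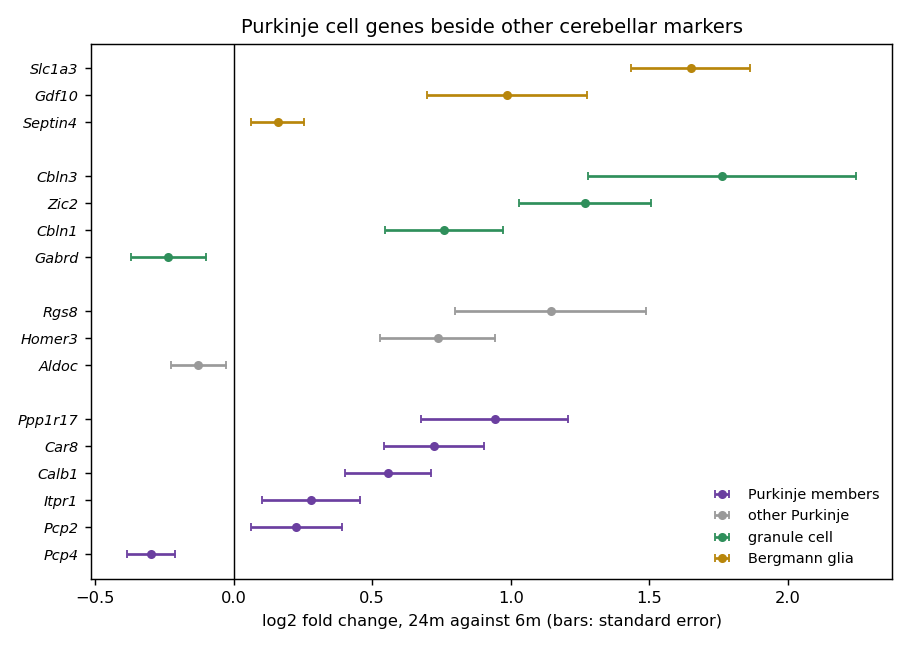
Log2 fold change between 24m and 6m for the genes of 4 cerebellar lists that the text names, with bars for the standard error; members in purple, other Purkinje cell genes in grey, granule cell genes in green and Bergmann glia genes in gold. Among the members the values run from -0.30 for Pcp4 to 0.94 for Ppp1r17, and among the other Purkinje cell genes shown from -0.13 for Aldoc to 1.14 for Rgs8.

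The partners of each member were examined by its role, and the counts of changed genes stand beside 10.3% higher and 4.16% lower over all tested genes. For Pcp2, the list held Gi and Go alpha subunits and other GoLoco proteins, of which 9 of 11 were tested and 3 were changed, all higher, with a median log2FC of 0.48. Gnai2, a Gi alpha subunit, rose from 137 ± 11.6 to 210.0 ± 26.0 CPM (SD over 4 mice per age; log2FC 0.61, SE 0.122, adjusted p = 0.001 in edgeR), and its log2FC was between 0.56 and 0.57, under the minimum, without young adult replicate 2, aged replicate 2 or aged replicate 3. Gnao1, the Go alpha subunit, rose from 109 ± 17.4 to 184 ± 36.6 CPM (SD over 4 mice per age; log2FC 0.76, SE 0.146, adjusted p = 0.000627 in edgeR), with aged replicate 1 inside the young adult range. Gpsm1, a GoLoco protein like Pcp2, had a log2FC of 0.65 (SE 0.196, adjusted p = 0.0191 in edgeR), which was lost without young adult replicate 1 (adjusted p = 0.0732 in edgeR) or 4 (adjusted p = 0.0803 in edgeR) and with DESeq2 (adjusted p = 0.0736). All 4 aged libraries lay above the young adult libraries in the summed level of this list, 762 ± 63.3 against 518 ± 30.2 CPM (SD over 4 mice per age). These subunits are made throughout the brain.

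For Pcp4 and Calb1, the list of calcium buffers and sensors held 18 genes, of which 17 were tested and 2 were changed, both higher, with a median log2FC of 0.07. Hpcal4, a sensor of the visinin family, had 8.74, 16.5, 5.05 and 11.5 CPM at 6m and 46.4, 49.6, 93.4 and 48.2 CPM at 24m (log2FC 2.54, SE 0.301, adjusted p = 1.24e-06 in edgeR). Ncs1, a related sensor, rose from 14.9 ± 5.15 to 34.7 ± 15.9 CPM (SD over 4 mice per age; log2FC 1.16, SE 0.303, adjusted p = 0.00767 in edgeR), with an edgeR adjusted p of 0.0503 without aged replicate 3. All aged libraries exceeded all young adult libraries in Hpcal4, and all but aged replicate 1 did in Ncs1.

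For Itpr1 and Car8, 17 of 25 genes of IP3 signalling and calcium release were tested, of which 4 rose and 1 fell, with a median log2FC of 0.14. Homer3, given above, was among those that rose. Gna11, a Gq-family alpha subunit, lay between 24.96 and 29.3 CPM at 6m and at 55.7, 58.0, 51.9 and 29.6 CPM at 24m (log2FC 0.77, SE 0.222, adjusted p = 0.0151 in edgeR), with an edgeR adjusted p of 0.0735 without aged replicate 2. Stim1, the calcium sensor of the endoplasmic reticulum, rose from 15.5 ± 3.37 to 31.3 ± 6.64 CPM (SD over 4 mice per age; log2FC 0.94, SE 0.261, adjusted p = 0.0116 in edgeR), without overlap. Orai2, a channel that Stim1 opens, held 1, 2, 3 and 3 counts at 6m and 5, 17, 8 and 14 counts at 24m. It passed the thresholds, but not with DESeq2 on quantile-normalized counts (adjusted p = 0.0593). No fold change is given for Orai2 because no young adult library held more than 3 counts. Plcb1, a phospholipase C isoform of forebrain neurons, fell from 32.1 ± 5.81 to 17.1 ± 6.61 CPM (SD over 4 mice per age; log2FC -0.84, SE 0.261, adjusted p = 0.023 in edgeR), and its edgeR adjusted p was 0.104 without young adult replicate 3, 0.05004 without young adult replicate 4 and 0.0532 without aged replicate 2. On library sizes alone the edgeR adjusted p of Plcb1 was 0.0549, and with DESeq2 it was 0.0639.

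Among the relatives of Car8, 6 of 10 other carbonic anhydrase genes were tested, with a median log2FC of -0.05, which is within the shift of 0.10 between scalings. None was changed in edgeR or DESeq2, and 4 had an unadjusted p under 0.05 in edgeR. The 3 most abundant were Car11, Car2 and Car4. Car11, which like Car8 lacks the enzymatic activity, was lower in every aged library, at 241 ± 17.3 CPM in the young adult and 205 ± 6.03 CPM in the aged libraries (SD over 4 mice per age; log2FC -0.24, SE 0.104, adjusted p = 0.0977 in edgeR), which did not pass the test. Car2, an enzyme of oligodendrocytes, had a log2FC of 0.14 (SE 0.126) and Car4, a membrane-anchored enzyme of capillaries, one of -0.28 (SE 0.155). The highest log2FC of the list was 0.78, beside 0.72 for Car8.

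For Ppp1r17, the list held the phosphatases PP1 and PP2A, their regulators and the cGMP pathway, of which 12 of 14 genes were tested and 4 were changed, all higher, with a median log2FC of 0.28. Of the 12 tested genes 7 had a positive log2FC. In 2, named after their values were seen, every aged library lay below every young adult library. These were Ppp1r1a (log2FC -0.52, SE 0.113, adjusted p = 0.00193 in edgeR, under the fold change minimum) and Ppp2r1a (log2FC -0.15, SE 0.0845). Exons of Ppp1r1a overlap Pde1b on the opposite strand. Ppp1cb, a catalytic subunit of PP1, rose from 26.5 ± 7.13 to 51.0 ± 12.1 CPM (SD over 4 mice per age; log2FC 0.96, SE 0.216, adjusted p = 0.00259 in edgeR). Ppp1r2, an inhibitor of PP1, rose from 41.7 ± 8.53 to 76.4 ± 19.4 CPM (SD over 4 mice per age; log2FC 0.92, SE 0.192, adjusted p = 0.00139 in edgeR). Ppp1r9b, which encodes spinophilin, a targeting subunit of PP1 in dendritic spines, rose from 86.0 ± 28.7 to 228 ± 54.3 CPM (SD over 4 mice per age; log2FC 1.38, SE 0.184, adjusted p = 7.26e-06 in edgeR). Gucy1b1, a subunit of the soluble guanylate cyclase that makes cGMP, had a log2FC of 0.635 (SE 0.2098, adjusted p = 0.0315 in edgeR), a call that was lost on leaving out any library but aged replicate 1, where the edgeR adjusted p lay between 0.0515 and 0.142, and with DESeq2 (adjusted p = 0.117). Every aged library exceeded all young adult libraries in Ppp1r9b, and all but aged replicate 1 did in Ppp1cb and Ppp1r2. The kinases themselves were scarce, with Prkg1 at 0 counts in 4 libraries and Prkg2 in 3.

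Markers of other cerebellar cells were read beside the members. Of 14 cerebellar granule cell genes, 13 were tested, 3 were changed, all higher, 10 had a positive log2FC, and the median was 0.65. Over all tested genes 10.3% were changed and higher and 4659 of 9375 had a positive log2FC. These 3 genes, Cbln1, Cbln3 and Zic2, lie outside the rule for naming genes and were named after their values were seen. Cbln1, which encodes the cerebellin that granule cells release onto Purkinje cells, had 106, 29.3, 61.8 and 64.9 CPM at 6m and 129.9, 132, 113 and 87.9 CPM at 24m (log2FC 0.76, SE 0.212, adjusted p = 0.0124 in edgeR). Cbln1 fell to a log2FC of 0.57 without young adult replicate 2 and had an edgeR adjusted p of 0.058 without aged replicate 2 and an adjusted p of 0.125 with DESeq2. Cbln1 was higher than in all young adult libraries in every aged library but replicate 4. Cbln3, a partner of Cbln1, held only 4, 1, 4 and 2 counts at 6m and 5, 17, 16 and 9 counts at 24m. These correspond to 4.99, 1.83, 5.05 and 2.55 CPM at 6m and 7.73, 17.9, 20.8 and 7.0004 CPM at 24m, without overlap (log2FC 1.76, SE 0.483, adjusted p = 0.011 in edgeR). No young adult library held more than 4 counts of Cbln3, so the size of its fold change is uncertain. With DESeq2 on quantile-normalized counts the adjusted p of Cbln3 was 0.0512. Zic2, a transcription factor of granule cells, rose from 17.2 ± 4.298 to 41.7 ± 9.18 CPM (SD over 4 mice per age; log2FC 1.27, SE 0.238, adjusted p = 0.000494 in edgeR). The most abundant gene of the list, Gabrd, also made in forebrain, was not changed (log2FC -0.23, SE 0.135). In sum the granule cell list held 584, 387, 453 and 503 CPM in the young adult libraries and 606, 633, 571 and 534 CPM in the aged libraries, and no gene of it was at 0 in all libraries.

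Bergmann glia, the radial astrocytes that wrap Purkinje cells, gave 6 tested genes of 6, of which Gdf10 and Slc1a3 were changed, both higher, with a median of 0.27; both were named after their values were seen. Gdf10 had 23.7, 12.8, 7.57 and 20.4 CPM at 6m and 29.4, 45.3, 26.0 and 28.8 CPM at 24m (log2FC 0.99, SE 0.288, adjusted p = 0.0159 in edgeR), with an edgeR adjusted p of 0.0783 without young adult replicate 3 and 0.0959 without aged replicate 2. Slc1a3, which astrocytes of other regions also make, rose from 25.1 ± 3.27 to 77.4 ± 23.5 CPM (SD over 4 mice per age; log2FC 1.65, SE 0.214, adjusted p = 5.07e-06 in edgeR). The list summed to 612, 565, 548 and 596 CPM at 6m and to 730.0, 697, 697 and 731 CPM at 24m. Septin4, its most abundant gene, made up 64.3% of that sum and was not changed (log2FC 0.16, SE 0.0956).

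Over all 8 libraries, the score of the members had its highest r among 17 cell type lists with the granule cell markers. Its Pearson r with the log2 of their summed CPM was 0.851 and Spearman rho 0.786. With the other Purkinje cell genes its r was 0.0158 and rho -0.0476. The members differed in this, with an r of 0.771 for Pcp2, -0.370 for Calb1 and -0.483 for Itpr1, and Aldoc made up 48.0% of that list's sum. Without young adult replicates 2 and 3, the libraries farthest from the median of the markers, r was 0.787, and on deviations from the mean of each age it was 0.72. The order of the lists did depend on the libraries and the members. With the libraries farthest from the median of each list left out, r was 0.811 for microglia and 0.7805 for astrocytes, and with Pcp4 left out of the score it was 0.869 for granule cells and 0.867 for Bergmann glia. By member, r with the granule cell markers was 0.841 for Car8, 0.793 for Ppp1r17, 0.676 for Pcp2, 0.631 for Calb1, 0.393 for Itpr1 and -0.579 for Pcp4. The part of granule cells in the members' values was not tested.

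Dividing by the granule cell markers gives a value within each library that does not depend on its size, but the markers themselves differed between the ages, at 482 ± 83.2 CPM and 586 ± 43.0 CPM (SD over 4 mice per age). The members' sum was nearly the same, at 1634 ± 156 CPM and 1629 ± 91.3 CPM, since Pcp4 was lower and the other 5 members together were higher, at 644 ± 148 CPM and 825 ± 115 CPM. The members' summed CPM was 3.19, 3.96, 3.38 and 3.21 times that of the markers at 6m and 2.80, 2.702, 2.65 and 3.00 times at 24m. All aged libraries lay below the young adult libraries in this ratio, whose denominator differed more between the ages than the members' sum. Pcp4 made up 55.0% of that sum. The ratio of Pcp4 alone was 2.10 ± 0.316 at 6m and 1.38 ± 0.198 at 24m (SD over 4 mice per age), without overlap, where its level at 24m was 0.814 of that at 6m and the level of the markers 1.22 times that at 6m. For the other 5 members together the ratio was 1.46, 1.52, 1.12 and 1.24 at 6m and 1.57, 1.41, 1.31 and 1.33 at 24m, so the ages overlapped. Ppp1r17 lay higher in all aged libraries after this division as before it, and Car8, whose ages met before it, lay higher in all aged libraries by a small margin, 0.148 against 0.145 at the nearest, at 0.120 ± 0.0244 and 0.165 ± 0.0183 for Car8 and at 0.0273 ± 0.00138 and 0.0441 ± 0.00659 for Ppp1r17 (6m and 24m, SD over 4 mice per age), whereas Pcp2, at 0.835 ± 0.167 and 0.812 ± 0.199, overlapped.

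**Figure D4:**
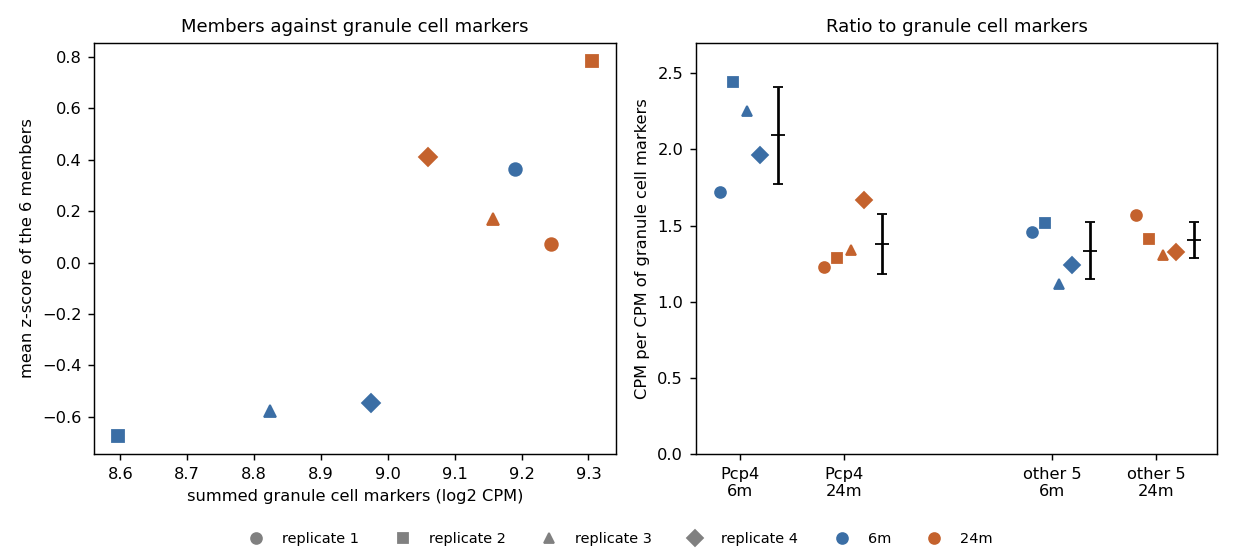
Left, mean z-score of the 6 members against the summed granule cell markers (log2 CPM), 1 point per library. Right, ratio of Pcp4 and of the other 5 members to the summed granule cell markers, with black bars for the mean ± SD of 4 libraries; the ratio of Pcp4 lies between 1.72 and 2.44 at 6m and between 1.23 and 1.67 at 24m, and that of the other 5 members overlaps between the ages.

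Markers of other regions and cells were read beside the members, since the members are expressed outside the cerebellum. Striatal projection neuron genes, among which Pcp4 and Calb1 are also found, summed to 1155 ± 48.4 CPM in the young adult and 1336 ± 98.4 CPM in the aged libraries (SD over 4 mice per age), with all aged libraries higher, 7 of 11 tested genes with a positive log2FC, and Penk as the most abundant gene. Pcp4 went the other way, with an r of -0.863 to their sum. Cortical glutamatergic genes, led by Slc17a7, were also higher in all aged libraries, at 863 ± 48.1 CPM and 1204 ± 149 CPM (SD over 4 mice per age), with 7 of 9 tested genes positive. Hippocampal genes, led by Bok, lay at 225 ± 28.7 and 248 ± 24.3 CPM with 3 of 6 positive, and thalamic genes, led by Prkcd, at 112 ± 8.96 and 99.6 ± 9.97 CPM with 1 of 3 positive. Hypothalamic genes, led by Sst, lay at 1147 ± 92.6 and 984 ± 113 CPM with 4 of 10 positive. The r of their sum with the members' score, -0.779, was the lowest of the lists. Sst made up 63.5% of that sum, and neither the sum nor its r was examined without Sst. The 7 lists of neurons outside the cerebellum thus went in different directions, with olfactory bulb genes at 195 ± 55.7 and 177 ± 29.2 CPM, 1 of 4 positive (the leading gene Pcp4l1, log2FC 0.54) at a median of -0.75, Tbx21 at 0 in all libraries (in the smallest library a count of 0 allows up to 5.50 CPM, for counting error only), and brainstem genes, led by Ecel1, at 47.0 ± 14.6 and 41.2 ± 6.22 CPM with 1 of 10 tested.

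Glial and vascular lists differed between the ages as well. Oligodendrocyte genes, led by Mbp, summed to 2363 ± 261 CPM at 6m and 3452 ± 391 CPM at 24m, astrocyte genes, led by S100b, to 529 ± 46.9 and 695 ± 54.3 CPM, and microglial genes, led by C1qa, to 728 ± 31.6 and 940.2 ± 112 CPM (SD over 4 mice per age), with no overlap in any of these sums. The genes of a list did not all follow its sum. The log2FC was positive in 4 of 7 astrocyte genes, at a median of 0.05, beside 7 of 8 oligodendrocyte genes and 6 of 6 microglial genes. Of the astrocyte genes 2 were changed and higher, Gfap and Gja1, and 2 changed and lower, Slc1a2 and Slc4a4. The log2FC was -0.59 for Slc1a2 (adjusted p = 0.0131 in edgeR) and -1.22 for Slc4a4 (adjusted p = 0.0229 in edgeR). Neither of these 2 passed with DESeq2 (adjusted p = 0.0715 and 0.0754). In the astrocyte list Gfap, named after its values were seen, rose from 62.4 ± 15.03 to 240.3 ± 48.3 CPM (SD over 4 mice per age; log2FC 1.94, SE 0.168, adjusted p = 5.02e-08 in edgeR), more than the sum did, while S100b was at 194 ± 39.1 and 202 ± 5.53 CPM. Haemoglobin genes and Alas2 together were lower, at 7875 ± 1713 and 4581 ± 1284 CPM, endothelial genes, led by Ly6c1, lay at 201 ± 18.8 and 174 ± 9.30 CPM, choroid plexus genes, led by Ttr, at 3905 ± 775 and 3557 ± 1137 CPM, and cerebellar interneuron genes at 30.1 ± 7.35 and 46.6 ± 16.0 CPM (SD over 4 mice per age). In the interneuron list Sorcs3, which led the sum, had a log2FC of -0.16, and Nxph1, of the highest mean count, rose from 7.06 ± 2.33 to 16.6 ± 7.55 CPM (SD over 4 mice per age; log2FC 1.22, SE 0.390, adjusted p = 0.0265 in edgeR). The edgeR adjusted p of Nxph1 was 0.0886, 0.057 and 0.0508 without young adult replicates 1, 2 and 4 and 0.103 and 0.0523 without aged replicates 3 and 4, and with DESeq2 it was 0.0745. Over the 8 libraries, with the difference between the ages included, Pcp4 was opposed to the glial sums, with an r of -0.931 to microglia, -0.908 to oligodendrocytes and -0.897 to astrocytes, and Ppp1r17 followed them, with an r of 0.820, 0.856 and 0.834. On deviations from the mean of each age, the r of the members' score was 0.332 with astrocytes, 0.05 with oligodendrocytes and -0.662 with microglia, against 0.72 with granule cell markers. The part of any of these cell types in the members' values was not tested.

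**Figure D5:**
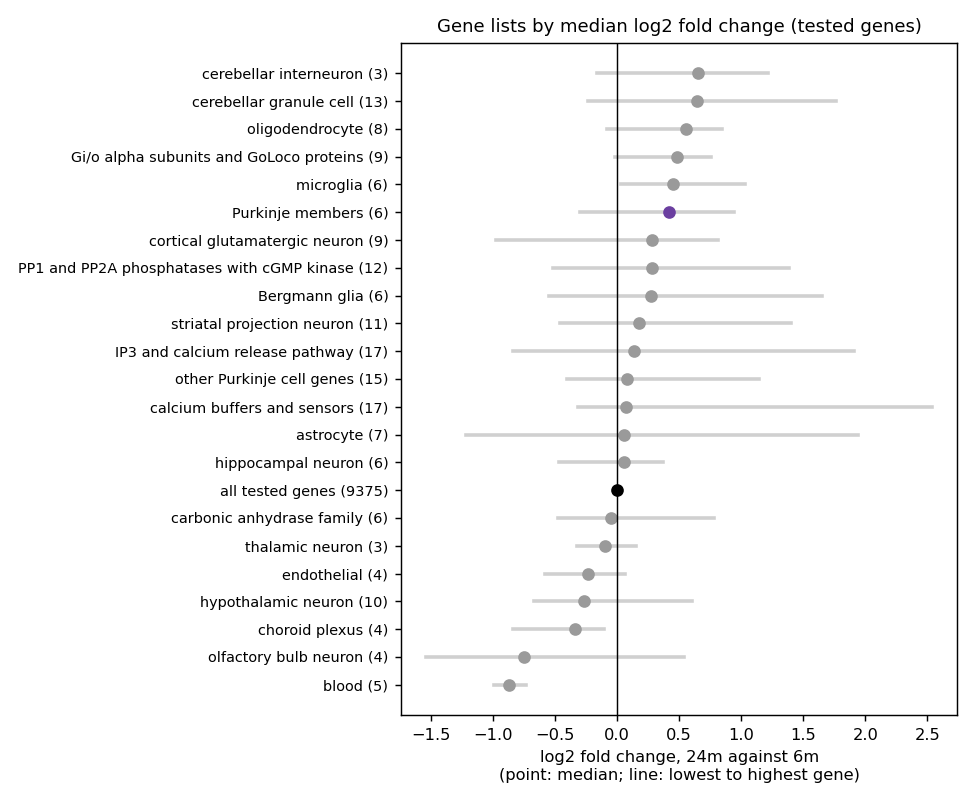
Median log2 fold change between 24m and 6m of each gene list (points) with its lowest and highest tested gene (lines); the number of tested genes stands in brackets, and the brainstem list, with 1 tested gene, is left out. The members' median is 0.42, that of granule cell genes 0.65, that of the other Purkinje cell genes 0.08 and that of all tested genes -0.0032.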

How the data were processed

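The authors deposited raw read counts per gene from nanopore direct RNA reads of 1 hemisphere per mouse, mapped to GRCm39 with minimap2 2.24 (submitters' notes). The sample labels name another kit than the methods, which were followed. In R 4.3.3, edgeR 4.0.16 fitted age to the 9375 of 22430 genes with a mean count over 5, on TMM library sizes, by its quasi-likelihood test; the SE follows from the log2FC and F. DESeq2 1.42.0 served as an alternative. BLAST 2.17.0 compared transcripts of GENCODE vM39, to which 22281 genes were matched. The members and lists were chosen with earlier results of these data known. Beside the members, the text names every changed gene of the 5 pathway lists and the Purkinje list (or the 3 tested genes of highest mean count), the most abundant gene of each cell type list, and the 10 highest and 5 lowest correlations; other genes were named after their values were seen.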

Additional observations from a re-analysis of the deposited data

Results flagged for a closer look

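Within each age, the levels of the members and of the other genes named by the rule, the sums of the cell type lists and the library totals were examined for a library lying apart from the other 3, by its gap to the nearest library relative to the whole range (Dixon's ratio, 95 percent critical value). This held in 7 of 122 groups, and about 6.1 would be so by chance, at 1 in 20; no group of a member was among them. The total of young adult replicate 2, 573152 counts, was low. Homer3 was high in aged replicate 1 at 128 CPM, Orai2 low in young adult replicate 1 at 1.25 CPM, Hpcal4 high in aged replicate 3 at 93.4 CPM and Septin4 low in young adult replicate 3 at 352 CPM. The hippocampal sum was high in young adult replicate 4 at 267 CPM and in aged replicate 3 at 284 CPM.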

How the results depend on the processing

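Over the 16 alternatives of the fit, the log2FC of each member kept its sign. The smallest values of Pcp2, Pcp4 and Itpr1 were below their SE in size. The ranges were 0.04 to 0.44 for Pcp2, -0.35 to -0.0549 for Pcp4, 0.47 to 0.69 for Calb1, 0.61 to 0.99 for Car8, 0.07 to 0.43 for Itpr1 and 0.89 to 1.07 for Ppp1r17. By more than its spread within an age, only Pcp4 moved, to -0.19 on library sizes alone, where all genes shift, and to -0.0549 with DESeq2 on quantile-normalized counts; the cause of the latter was not tested. The calls of the members did not all hold. Car8 passed both thresholds in all 16 alternatives, and Ppp1r17 in all but DESeq2 and DESeq2 on quantile-normalized counts. Calb1, not called in the main fit, passed in some alternatives. The number of changed genes was 1359, and 834 with DESeq2, 801 with DESeq2 on quantile-normalized counts and between 988 and 1594 with 1 library left out. With a replicate block it was 1308. Deviations of libraries with the same number correlated at 0.065, -0.010, 0.005 and -0.16, so the numbers do not pair the mice. The median rho of the members lay between 0.0714 and 0.286 with 1 library left out, and without Pcp4, a choice made after seeing the data, it was 0.536; on deviations from the mean of each age with aged replicate 1 left out, chosen in the same way, it was 0.357. Their r with granule cell markers was 0.72 on deviations from the mean of each age, 0.787 without the libraries farthest from the median and 0.786 to 0.896 with 1 library left out. Of 41 changed genes of the lists outside the members, 16 passed both thresholds in all 16 alternatives and no sign of these turned. At a mean count of 16.6, Ppp1r17 allows no statement on small differences.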
